A study of Homo sapiens with 6 samples.

Results

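Genes that start, restrain or stabilise a blood clot, or that activate plasminogen to dissolve it, were examined in THP-1 cells before and after differentiation with PMA: F3, F5, F13A1, THBD, PROCR, TFPI, TFPI2, PLAU and PLAUR. They were taken from the series by name, with earlier results of these data known, and are 9 of the 18417 genes tested. Each had a single probe set carrying its symbol alone. Of the 9, 6 rose with PMA (TFPI2, PLAUR, TFPI, PLAU, THBD and PROCR), 1 fell (F13A1), and F3 and F5 did not pass the test. The rises ran from 1.88-fold for PROCR to 76.8-fold for TFPI2, and F13A1 fell 10.9-fold. The TFPI2 value is of uncertain size, since its unstimulated signal was close to background and leaving out 1 PMA array moved the fold by up to 1.82 times.

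THP-1 is an established line of human monocytic leukaemia cells, and PMA, a phorbol ester acting through protein kinase C, turns them into adherent, macrophage-like cells. Both groups were grown in RPMI with 10% FBS, 2.5 mM glutamate and 0.05 mM 2-mercaptoethanol. The 3 unstimulated arrays hold cells without PMA, and the 3 PMA arrays hold cells given 200 nM PMA for 3 days and then kept without it for another 3 days. Total RNA extracted with Trizol was labelled with biotin and hybridised to single-channel Affymetrix arrays, 1 per sample.

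Clotting in tissue starts when the membrane protein tissue factor, the product of F3, binds factor VII and the complex activates factor X. Factor X with its cofactor, factor V, then makes thrombin, thrombin makes fibrin, and factor XIII crosslinks the fibrin strands. Several brakes act on this chain: TFPI blocks the tissue factor complex, and thrombomodulin (THBD) and the endothelial protein C receptor (PROCR) let thrombin activate protein C, which inactivates factor V. Fibrin is removed by plasmin, which urokinase (PLAU) releases from plasminogen at the cell surface when it is held by its receptor (PLAUR), and TFPI2 is a matrix-bound relative of TFPI that inhibits plasmin. Monocytes and macrophages carry tissue factor, the urokinase receptor and factor XIII subunit A, so they take part in both clotting and fibrin removal.

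Because the treatment was a phorbol ester, the bases just upstream of the members' start sites are shown first. The AP-1 family binds the phorbol ester response element, TGAGTCA or TGACTCA. A looser 7-letter form of this element, TGANTCA with N as any base, was searched on both strands. The search covered the 250 bases upstream of each annotated start (RefSeq, GRCh38.p14). Windows were on hand for 8 of the 9 members, all but THBD, and PLAU had 2. The looser form, called the element here, was found in the windows of 3 members, F3, TFPI2 and PLAUR. It was found in 6.57% of all 35116 windows of the same length. All of these matches are in capitals in the sequences, which are printed 5′ to 3′ on the gene's strand and end at the base before the start. F3, TFPI2 and PLAUR are shown because they hold the element, and TFPI because it rose without it in this window.

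F3, chr1:94541760-94542009, minus strand: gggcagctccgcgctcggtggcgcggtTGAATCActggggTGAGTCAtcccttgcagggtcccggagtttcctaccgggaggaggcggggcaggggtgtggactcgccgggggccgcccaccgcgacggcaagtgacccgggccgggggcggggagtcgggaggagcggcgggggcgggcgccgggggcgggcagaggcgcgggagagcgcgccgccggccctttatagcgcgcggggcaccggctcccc
TFPI2, chr7:93890754-93891003, minus strand: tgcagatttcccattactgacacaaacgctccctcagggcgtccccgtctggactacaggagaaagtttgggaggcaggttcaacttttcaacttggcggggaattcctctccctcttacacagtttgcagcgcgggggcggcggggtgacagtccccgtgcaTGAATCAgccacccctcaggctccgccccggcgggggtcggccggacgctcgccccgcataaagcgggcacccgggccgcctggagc
PLAUR, chr19:43670170-43670419, minus strand: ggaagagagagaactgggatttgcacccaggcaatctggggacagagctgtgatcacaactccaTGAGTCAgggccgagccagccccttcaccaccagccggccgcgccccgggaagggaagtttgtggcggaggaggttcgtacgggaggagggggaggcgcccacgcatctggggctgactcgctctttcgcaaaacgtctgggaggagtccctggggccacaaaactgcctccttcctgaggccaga
TFPI, chr2:187554436-187554685, minus strand: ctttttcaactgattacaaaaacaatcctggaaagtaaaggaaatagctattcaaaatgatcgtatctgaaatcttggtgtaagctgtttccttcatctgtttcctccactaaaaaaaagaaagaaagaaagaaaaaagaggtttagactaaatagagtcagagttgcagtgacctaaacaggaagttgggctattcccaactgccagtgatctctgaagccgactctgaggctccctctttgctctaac

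F3 held 2 matches, TGAATCA at 223 to 217 bases and TGAGTCA at 210 to 204 bases upstream of the start. TFPI2 held TGAATCA at 87 to 81 bases and PLAUR held TGAGTCA at 186 to 180 bases. TGAATCA, the only match in TFPI2, fits the looser form alone. The EGR-type element GCGNGGGCG was found in the windows of these same 3 genes and in 8.41% of all windows, and the GC box GGGCGG in those of F3, TFPI2, PLAU and PROCR and in 42.6% of all windows. A GC box in F3 and another in TFPI2 share bases with the EGR-type match. None of the 3 elements lay in the windows of TFPI, F5 or F13A1. The TFPI window is poor in G and C (38.4% of its bases, against a median of 58.0% over all windows) and the F3 window is rich in them (78.0%). A match describes the letters of the window, and no binding was measured here. Of the 3 genes that hold TGANTCA, PLAUR and TFPI2 rose and F3 did not pass the test. Of the 5 whose windows lack it, TFPI, PLAU and PROCR rose, F13A1 fell and F5 did not pass.

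**Figure D1:**
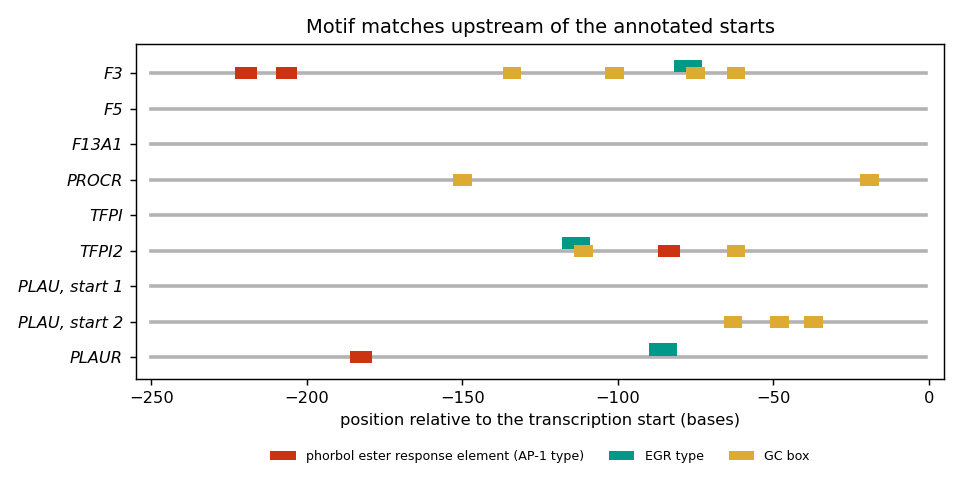
Matches to 3 elements in the 250 bases upstream of each annotated start, with position in bases on the horizontal axis and 1 line per window; THBD had no window. TGANTCA, a looser form of the phorbol ester element, lies in the windows of F3 (2 matches), TFPI2 and PLAUR.

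The values that follow are log2 values of a probe set after RMA, so a difference of 1 is a 2-fold change; probe sets differ in how they bind, so levels are compared between arrays and not between genes. A gene is said to rise or fall where limma gave a Benjamini-Hochberg adjusted p below 0.05 over all genes. Array medians lay between 6.20 and 6.25 on the unstimulated arrays and, lower, between 6.10 and 6.17 on the PMA arrays. Lower quartiles lay between 4.46 and 4.57, and values below those quartiles are taken as close to background. Arrays of the same group correlated at 0.9884 to 0.9951 and arrays of different groups at 0.9578 to 0.9684. PMA replicate 3 and unstimulated replicate 1 stand apart from their groups, with the lowest array quality weights (0.555 and 0.448, where the other 4 lay between 1.097 and 1.825). The labels do not state whether replicates came from separate cultures, so each p-value measures spread among arrays alone, possibly technical spread, and 3 arrays a group limit the precision.

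With PMA, 7 of the 9 members (6 higher and 1 lower) passed the threshold, where 26.4% of all genes did: 13.2% higher and 13.2% lower. All 7 were free of overlap between the groups, as were 41.2% of all genes. A change of at least 4-fold was called for 5 members, TFPI2, PLAUR, TFPI, PLAU and F13A1, and for 2.55% of all genes. TFPI and PLAU were near that size: without PMA replicate 1 TFPI was at 1.901, and without PMA replicate 2 PLAU was at 1.95 on the log2 scale, below 4-fold, which left 4 members in each case. Neither passed in a gene-wise model without shared variance (adjusted p = 0.0815 and 0.055), which left 3. The median log2 fold change of the 9 was 1.06, against −0.03 over all genes tested. In RNA from whole cultures, fewer cells that express a gene and less of its RNA per cell cannot be told apart.

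**Figure D2:**
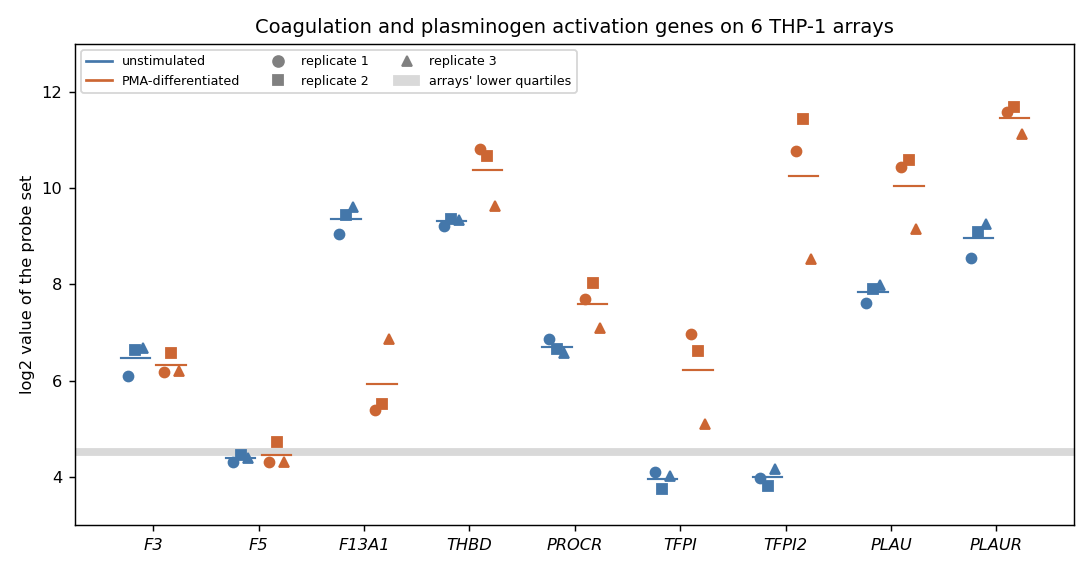
Log2 value of each gene's probe set on each array, with unstimulated arrays in blue, PMA arrays in orange, replicates as circles, squares and triangles, group means as lines, and the arrays' lower quartiles as a grey band. F3 and F5 overlap between the groups, and the PMA replicate 3 triangle lies nearest to the unstimulated arrays for the other 7 genes.

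The initiator of clotting did not change detectably. F3 read 6.09, 6.64 and 6.67 on unstimulated replicates 1, 2 and 3 and 6.18, 6.58 and 6.19 on the PMA arrays in the same order. All 3 PMA values lie inside the unstimulated range. The log2 fold change was −0.15 ± 0.19 (SE, n = 3 each; adjusted p = 0.633 in limma), with a 95% interval from −0.58 to 0.28, so a 2-fold change either way lies outside it. The lowest unstimulated value is that of replicate 1, and without it the change was −0.34 (adjusted p = 0.138).

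F5, the cofactor that factor X needs to make thrombin, stayed close to background. It read 4.31, 4.46 and 4.39 on the unstimulated arrays and 4.31, 4.73 and 4.30 on the PMA arrays, and PMA replicate 2 alone lay above the quartile band. The change of 0.06 ± 0.13 did not pass (adjusted p = 0.789 in limma; 95% interval −0.24 to 0.37). At this signal a change in F5 could not be measured well.

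F13A1, which encodes the catalytic subunit of the fibrin-crosslinking factor XIII, was the member that fell. It read 9.04, 9.45 and 9.62 on the unstimulated arrays and 5.38, 5.52 and 6.87 on the PMA arrays. Every PMA array lay at least 2.17 below every unstimulated one, and PMA replicate 3 was the highest of its group. The mean went from 9.37 ± 0.30 to 5.92 ± 0.82 (SD, n = 3 each), a log2 fold change of −3.45 ± 0.37 (SE; adjusted p = 0.000475 in limma), the 31st largest fall of all genes tested. Megakaryocytes and platelets also make factor XIII subunit A: of 7 markers of that lineage 6 were measured, with a mean level of 5.37 to 5.57 on the unstimulated arrays and 5.62 to 5.84 with PMA. None of the 6 fell, but 1 alone (GP9) lay above the median of every array, and a fall of markers this low could be missed. The platelet chemokine gene PPBP read 4.71 to 5.02 on the unstimulated arrays and 5.84 to 7.57 on the PMA arrays, a rise (2.03 ± 0.40, adjusted p = 0.00771 in limma), and the other 5, ITGA2B, GP9, GP1BA, GP6 and PF4, did not pass.

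Both receptors of the protein C pathway rose, by smaller amounts. THBD, thrombomodulin, read 9.22, 9.37 and 9.35 on the unstimulated arrays, a spread of 0.14, and 10.81, 10.67 and 9.64 on the PMA arrays. PMA replicate 3 lay 0.28 above the highest unstimulated array, and the other PMA arrays lay well above it. The log2 fold change was 1.06 ± 0.28 (SE, n = 3 each; adjusted p = 0.0258 in limma). This call did not survive the loss of single arrays. THBD did not pass without unstimulated replicate 1 (adjusted p = 0.0628), 2 (0.0779) or 3 (0.0741), nor without PMA replicate 1 (0.0903) or 2 (0.0839). Without PMA replicate 3 it was 1.43 (adjusted p = 5.46e-05).

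PROCR, the endothelial protein C receptor, read 6.87, 6.65 and 6.57 on the unstimulated arrays and 7.69, 8.02 and 7.10 on the PMA arrays. The groups were 0.24 apart at their nearest values, again set by PMA replicate 3. The change was 0.91 ± 0.22 (SE, n = 3 each; adjusted p = 0.0183 in limma). It did not pass without unstimulated replicate 2 or 3 (adjusted p = 0.0698 for each) or PMA replicate 1 (0.0696), and it was 1.16 (0.000697) without PMA replicate 3. A difference between the rises of these receptors was not detected: THBD minus PROCR shifted by 0.15 with PMA (exact permutation test, two-sided, p = 0.6), and without PMA replicate 1 by −0.02.

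The inhibitors TFPI and TFPI2 rose from close to background. TFPI, the Kunitz-type inhibitor of the tissue factor complex, read 4.10, 3.75 and 4.02 on the unstimulated arrays and 6.96, 6.62 and 5.09 on the PMA arrays. All unstimulated values lay below the quartile band, and all PMA values lay above it. The log2 fold change was 2.27 ± 0.43 (SE, n = 3 each; adjusted p = 0.00638 in limma), and without PMA replicate 3 it was 2.84 (8.06e-06).

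TFPI2, the plasmin inhibitor, changed more than any other member. It read 3.98, 3.81 and 4.17 on the unstimulated arrays and 10.77, 11.45 and 8.52 on the PMA arrays. The groups were 4.35 apart at their nearest values, while the PMA arrays differed among themselves by 2.93, the widest spread of any member. The log2 fold change of 6.26 ± 0.65 (SE, n = 3 each; adjusted p = 0.000381 in limma) ranked 6th among all genes. Its size depended on single arrays: it was 7.12 without PMA replicate 3 and 5.66 without PMA replicate 2, shifts of 1.82 and 1.52 times in fold. Since TFPI and TFPI2 started below the quartile band, where RMA compresses differences, the sizes of both rises are uncertain.

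F3 was also compared within each array with TFPI and with the plasmin inhibitor TFPI2, and TFPI2 with TFPI. F3 minus TFPI2 was 2.10, 2.84 and 2.50 on the unstimulated arrays and −4.59, −4.87 and −2.34 on the PMA arrays, a shift of −6.41. F3 minus TFPI was 1.99, 2.89 and 2.65 before and −0.78, −0.04 and 1.09 after, a shift of −2.42. TFPI2 minus TFPI shifted by 3.99, from values between −0.11 and 0.15 to values between 3.43 and 4.83. Its starting values compare 2 probe sets that were both below the quartile band, so they set background against background, and the size of the shifts that involve TFPI or TFPI2 is uncertain. For each of these 3 pairs the groups did not overlap, and the exact permutation test gave p = 0.1, the smallest that 3 arrays against 3 allow, or 0.167 after Benjamini-Hochberg adjustment over the 5 pairs compared. These are shifts in a difference between probe sets, and the difference itself is no ratio of transcript amounts.

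Urokinase and its receptor both rose. PLAU, the serine protease that cleaves plasminogen, read 7.62, 7.91 and 7.99 on the unstimulated arrays and 10.44, 10.58 and 9.15 on the PMA arrays. The groups were 1.16 apart, and the log2 fold change was 2.22 ± 0.35 (SE, n = 3 each; adjusted p = 0.00271 in limma). PLAUR, the glycolipid-anchored receptor that holds urokinase at the cell surface, read 8.56, 9.09 and 9.26 on the unstimulated arrays and 11.59, 11.69 and 11.13 on the PMA arrays. Here the PMA arrays were the tightest of any member that passed, with a spread of 0.56, and the change of 2.50 ± 0.21 had the lowest adjusted p of the 9 (0.000149 in limma).

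The protease and the receptor could not be told apart in the size of their rise. PLAU minus PLAUR was −0.93, −1.18 and −1.27 on the unstimulated arrays and −1.16, −1.10 and −1.98 on the PMA arrays, with overlapping groups. It shifted by −0.29 (exact permutation test, two-sided, p = 0.6, adjusted p = 0.6 over the 5 pairs). The shift rested on PMA replicate 3, without which it was −0.003. The loci of 5 of the 9 members overlap another annotated gene (F13A1, TFPI, PLAU, PLAUR and PROCR), and whether the probes tell strands apart is not given in the sources used here.

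**Figure D3:**
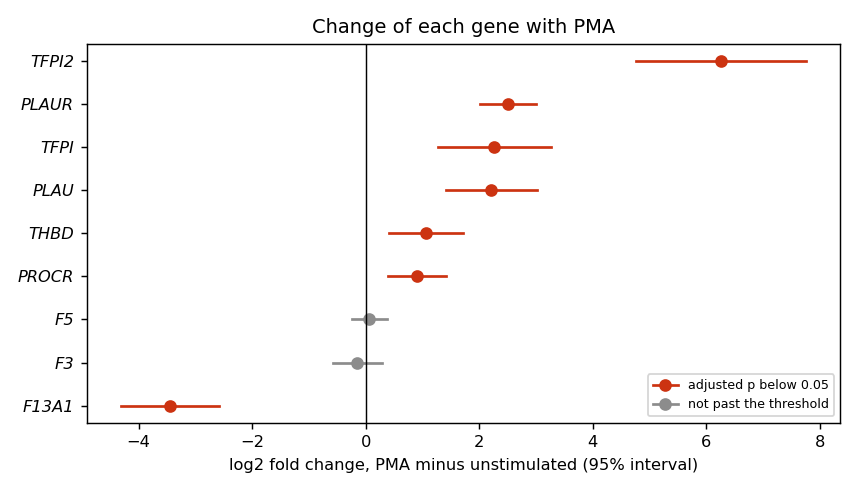
Log2 fold change of each gene, PMA minus unstimulated, with its 95% interval from limma (3 arrays a group); red marks an adjusted p below 0.05. The intervals of F3 and F5 span 0, TFPI2 lies at 6.26 and F13A1 at −3.45.

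The 7 members that passed shared a pattern over the PMA arrays: PMA replicate 3 was the one nearest to the unstimulated arrays for all 7. Among all genes called, PMA replicate 3 was the nearest for 55.3% of the 2431 higher and 44.7% of the 2423 lower ones. On the log2 scale the change on PMA replicate 3 was 23.1% of the mean change on PMA replicates 1 and 2 for THBD, 35.1% for PROCR, 40.1% for TFPI and 49.0% for PLAU. It was 63.7% for TFPI2, 63.8% for F13A1 and 80.8% for PLAUR. Over all 4854 called genes the median was 90.2% (quartiles 69.6% and 114%), so 6 of the 7 lay below the lower quartile and PLAUR inside the quartile range. All 7 passed without PMA replicate 3.

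**Figure D4:**
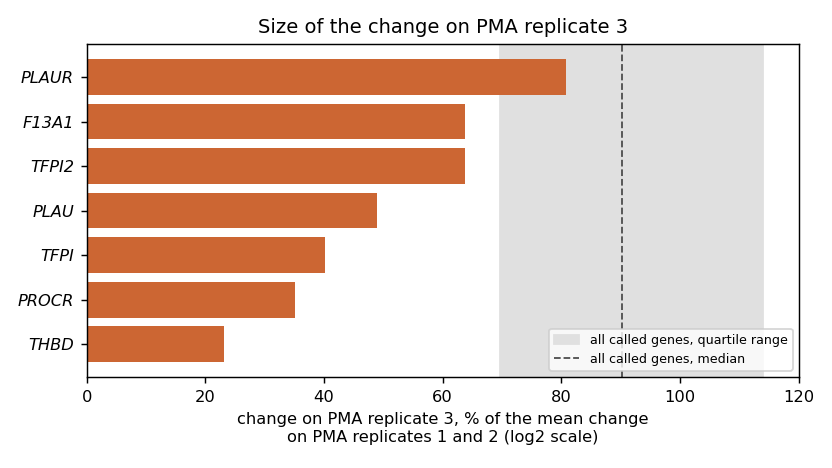
Change on PMA replicate 3 as a percent of the mean change on PMA replicates 1 and 2, on the log2 scale, for the 7 genes that passed (bars), with the median (dashed) and quartile range (grey) of all called genes. THBD is lowest at 23.1% and PLAUR highest at 80.8%.

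Macrophage markers that passed changed on PMA replicate 3 by 76.9% (CSF1R) to 120% (MNDA) of the mean change on the other PMA arrays. Of 12 markers of monocytes and macrophages 10 were measured, 5 rose and 2 fell, and their mean level was 8.79 to 9.18 on the unstimulated arrays and 9.91 on PMA replicate 3, against 10.06 and 9.91 on PMA replicates 1 and 2. The scavenger receptor gene MSR1 was highest on PMA replicate 3 (11.65, against 10.98 and 10.62). The integrin chain gene ITGAM was at 11.03 there, against 11.14 and 10.91. The 2 that fell were LYZ, from a mean of 12.57 to 9.81 with PMA, and MNDA, from 9.06 to 5.59. PTPRC, SPI1 and CD68, which mark leukocytes and myeloid cells, lay between 9.66 and 11.80 on every array, so these markers were present.

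THBD, PROCR and TFPI are best known from endothelial cells, so markers of that type were read beside them. Of 8 endothelial markers all were measured, 3 rose (ROBO4, TIE1 and ESAM) and none fell, and their mean level was 5.47 to 5.76 on the unstimulated arrays and 6.07 to 6.46 with PMA. This mean was highest on PMA replicate 3 (6.46), where THBD, PROCR and TFPI were lowest among the PMA arrays. The defining cadherin gene CDH5 read 5.22 to 5.32 on the unstimulated arrays and 5.17, 5.35 and 6.04 on the PMA arrays, below the median of every array. ROBO4 (8.31 to 8.61) and TIE1 (6.15 to 6.95) lay above the array medians on all PMA arrays, and so did EGFL7 and CLDN5. EGFL7 read 7.03 to 7.17 on the unstimulated arrays and 6.97 to 7.50 on the PMA arrays. CLDN5 read 6.57 to 6.83 and then 6.52 to 6.64, and neither EGFL7 nor CLDN5 passed. KDR read 4.46 to 4.83 on the unstimulated arrays and 4.96, 5.07 and 6.32 on the PMA arrays (adjusted p = 0.12 in limma), above the median on PMA replicate 3 alone. Of 6 fibroblast markers 1 rose and none fell, with means of 5.03 to 5.08 and 5.09 to 5.47. None of the 7 hepatocyte markers passed, with means of 4.67 to 4.76 and 4.59 to 4.71. The part of these markers in the members' values was not tested.

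Genes whose profile over the 6 arrays lay nearest to a member's were found by Euclidean distance between log2 values, each gene centred on its unstimulated mean. The smallest distance was between THBD and NUMB, at 0.128. NUMB read at most 9.12 on the unstimulated arrays and 10.50, 10.47 and 9.47 on the PMA arrays. Nearest to TFPI2 were CCL20 (distance 0.555) and DCSTAMP (0.909), which read 9.55 and 8.56 on PMA replicate 3, below 11.86 and 10.99 on PMA replicate 1 and 12.34 and 10.96 on PMA replicate 2. F13A1 lay nearest to FLT3 (0.893) and CD244 (0.942), with log2 fold changes of −3.67 and −2.95. PLAUR lay nearest to SYTL3 (0.295) and DOCK4 (0.304), PLAU to PLK3 (0.311) and CSPG4 (0.329), TFPI to NRIP3 (0.295) and COL6A3 (0.446), and PROCR to ETV3L (0.157) and ADAMTS6 (0.165). PMA replicate 3 was the PMA array nearest to the unstimulated ones for each neighbour too, a likeness that choosing them by profile brings. The distances describe 6 arrays in 2 groups.

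The other genes of coagulation and plasminogen activation were read from a list of 53, of which 50 were measured and 3 were not analysed here. Of the 50, 14 rose, 3 fell and 33 did not pass, with a median log2 fold change of −0.01. The shares that rose (14 of 50) and fell (3 of 50) stand beside 13.2% for each direction over all genes. The counts by role follow.

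The plasma clotting factors and fibrinogen chains, made mostly by the liver, gave few calls. F9, F13B, KNG1, KLKB1, FGA, FGB and FGG, named after their values were seen, lay below the quartile band on every array. At this signal changes in them could not be measured well. Of 14 measured, 1 rose, F8, by 0.89 ± 0.14 (adjusted p = 0.00275 in limma; named after its value was seen), and none fell. Of 8 anticoagulants 2 rose, again named after their values were seen: the phospholipid-binding ANXA5 (1.05 ± 0.15, adjusted p = 0.00163 in limma) and the heparin cofactor gene SERPIND1 (0.50 ± 0.15, adjusted p = 0.0414). SERPIND1 read 4.38, 4.76 and 4.45 on the unstimulated arrays, with replicates 1 and 3 close to background, and the groups were 0.01 apart. It did not pass without unstimulated replicate 1 or 3 or without PMA replicate 1 or 2. Of 3 thrombin receptors 1 rose: F2R, the main one, read 6.34, 6.04 and 6.09 on the unstimulated arrays and 8.29, 7.52 and 7.94 on the PMA arrays (1.76 ± 0.19, adjusted p = 0.000475 in limma).

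In the plasminogen system 7 of 14 measured genes rose and 1 fell, with a median log2 fold change of 0.56. Among the 7, S100A10 (adjusted p = 0.0181 in limma, named after its value was seen) did not pass without PMA replicate 1 or 2. The broad protease inhibitor A2M, which traps plasmin among others, rose most (3.92 ± 0.58, adjusted p = 0.0021 in limma). It read 6.30 on unstimulated replicate 1 and 8.68 on each of the other unstimulated arrays, against 11.94, 11.62 and 11.86 with PMA, and without that array the change was 3.13 (adjusted p = 1.83e-05). Thrombospondin THBS1, a matrix protein that binds plasminogen, rose by 3.51 ± 0.15 (adjusted p = 6.03e-06). LRP1, an endocytic receptor that clears proteases from the cell surface, rose by 2.42 ± 0.21 (0.000172).

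Surface receptors for plasminogen were among the genes that rose. ANXA2 went from 9.25, 9.52 and 9.45 to 11.13, 11.09 and 10.80 (1.60 ± 0.12, adjusted p = 9.18e-05 in limma), and PLGRKT, a membrane receptor for plasminogen, rose by 1.35 ± 0.17 (0.00111). The glycolytic enzyme gene ENO1, whose product also binds plasminogen at the surface, fell by 0.46 on the log2 scale (SE 0.08; adjusted p = 0.00601). PLAT, the other plasminogen activator, did not pass: it read 5.82, 5.91 and 5.77 on the unstimulated arrays and 5.90, 6.01 and 5.94 on the PMA arrays (0.12 ± 0.09, adjusted p = 0.399). Of the 2 activators, PLAU passed and PLAT did not; the difference between them was not tested.

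Among 11 genes of processing, secretion and the membrane, 3 rose and 2 fell. Transglutaminase TGM2, which crosslinks proteins as factor XIII does, read 6.70, 7.09 and 7.12 on the unstimulated arrays and 11.09, 10.80 and 9.44 on the PMA arrays (3.48 ± 0.39, adjusted p = 0.000547 in limma). It rose where F13A1 fell, and its PMA replicate 3 value was again the one nearest to the unstimulated arrays. The thromboxane synthase gene TBXAS1 rose by 1.21 ± 0.16 (0.00116). SELPLG, the selectin ligand through which leukocytes bind platelets, went from 9.83, 9.56 and 9.50 to 7.32, 7.32 and 7.64 (−2.20 ± 0.13, adjusted p = 2.8e-05). The protein disulfide isomerase gene P4HB, a protein-folding enzyme, fell by 0.50 (SE 0.09; 0.00579).

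**Figure D5:**
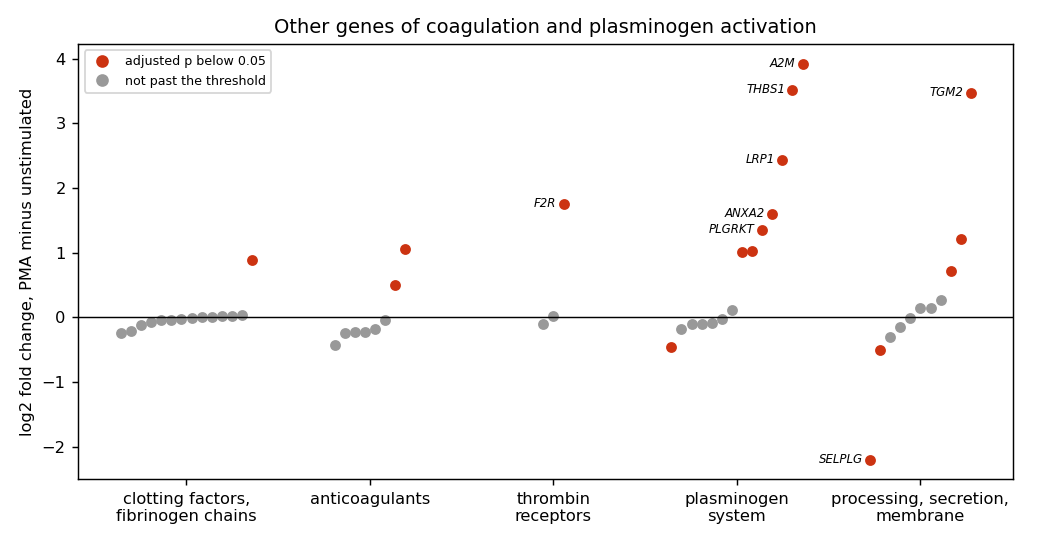
Log2 fold change, PMA minus unstimulated, of the 50 other genes measured, 1 point per gene in 5 roles; red marks an adjusted p below 0.05 and names are given for the larger changes. Of 14 clotting factors and fibrinogen chains 1 passed, and of 14 genes of the plasminogen system 8 did. Several genes, F9 and FGG among them, were close to background on every array.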

How the data were processed

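Gene expression was measured on 6 Affymetrix arrays, 3 per group, grouped by the titles in the labels. The authors deposited log2 values for 33297 probe sets on each array. Their processing, per the submitters' processing notes, involved RMA and Partek (version of each: not given in the sources used here); the log base was inferred from the range of the values. RMA brings the arrays' distributions closer together and shrinks differences at low signal, though the deposited medians still differed slightly between the groups.

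Symbols came from the platform annotation, updated by gene ID (19429 of 19460 one-symbol probe sets matched to GRCh38.p14 names); 1754 with several symbols and 12083 not named there were not tested. The brightest probe set by mean stood for each of 18417 genes, with no filter. Group was the only term of a fit by lmFit and eBayes (limma 3.58.1, R 4.3.3). Calls needed a p below 0.05 after Benjamini-Hochberg adjustment across the 18417 genes. Pairs of members were compared by an exact permutation test over arrays; 1 further planned pair was not analysed here. Named genes were the 9 members, a few fixed partners, the 8 largest rises and up to 6 falls that passed in the wider list, and 2 nearest profiles per member that passed; others are marked in the text. Members and lists were chosen with earlier results of these data known. Of these steps only the limma calls were tested on simulated data, with independent noise and far fewer changed genes than were called here. Alternatives covered scaling, dim genes, probe sets, variance models, thresholds, a replicate block and leaving out each array. Promoter windows come from RefSeq. Figures were drawn with matplotlib 3.10.9.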

Additional observations from a re-analysis of the deposited data

How the results depend on the processing

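The 6 members that rose and the 1 that fell kept their direction under all 19 alternatives in which they were measured (TFPI was absent where the lowest 25% of genes by mean were left out). F13A1, TFPI2 and PLAUR passed under each of the 19. In the gene-wise model without shared variance 2 members passed as higher and 3 as changed at least 4-fold, and THBD (adjusted p = 0.147), PROCR (0.119), TFPI (0.0815) and PLAU (0.055) did not pass; 2843 genes were called in all. THBD and PROCR also did not pass at an adjusted p of 0.01 (2824 genes called) or by treat against a 1.5-fold change (1125 genes called), where 8 wider pathway genes were called higher and 1 lower. With array quality weights 5 wider pathway genes were lower, as with PMA replicate 3 and unstimulated replicate 1 both left out, an alternative chosen after seeing the data. That alternative turned the PLAU minus PLAUR shift to 0.094. Over the arrays left out singly, the THBD minus PROCR shift ran from −0.023 to 0.268. Over all alternatives the adjusted p ran from 4.27e-06 to 0.582 for THBD and from 3.21e-05 to 0.761 for PROCR. The cause of these changes was not tested. Rescaling left the members' counts as they were; the median of all genes was −0.03 as deposited and 0.06 with arrays centred on their medians, and 50.1% and 61.8% of called genes were higher.

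Whether same-numbered arrays form pairs cannot be settled from deviations around means of 3 arrays. Correlations of same-numbered deviations from the group means were 0.177, −0.022 and 0.046. Unstimulated replicates 1 and 3 correlated best with the PMA array of the same number, and unstimulated replicate 2 with PMA replicate 3 (0.112). With the replicate number as a block, 4726 genes were called, against 4854, and no member's call changed.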
